A study of Mus musculus with 6 samples.

Results

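Transcripts for the folding machinery of the endoplasmic reticulum (ER) and for the unfolded protein response were measured in thymocytes of 3 mice lacking Klf4 in T cells and 3 control mice. The genes were chosen by name from a list of 37 that covers lectin chaperones and disulfide isomerases, the HSP70/HSP90 system of the ER, stress sensors and transcription factors, ER-associated degradation, and the translocon. Of the 37 genes, 32 had a probe that the platform annotation names, out of 16593 genes on the array. The 32 genes had 45 probes, of the 25697 on the array. Ppib, Sdf2l1, Dnajb11, Atf6 and Sec61g were not analysed here. Where a gene had several probes, the probe with the highest mean over the 6 arrays stood for it. Of the 32 genes, 27 passed the filter on dim probes. Canx, Manf, Ern1, Derl1 and Ssr1 did not, and their values come from a fit on all probes.

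The knockout mice (labelled KO, n = 3) were Klf4fl/fl and carried Cre recombinase under the CD4 promoter (CD4-Cre+). The control mice (labelled WT, n = 3) were also Klf4fl/fl but lacked Cre (CD4-Cre-), so both groups carried the floxed alleles and no mouse with unfloxed Klf4 was measured. All were of the C57/BL6 background and 8 to 10 weeks old. CD4-Cre acts in T-lineage cells from the double-positive stage on, and earlier stages and other cells keep Klf4. The RNA came from fresh double-positive and CD4 single-positive thymocytes of each mouse, enriched for CD4 with kits from either of 2 makers, and each sample was read on a MouseRef-8 v2 bead array from Illumina. The scores below are in z units, for which the authors set the mean of each array to 0 and its SD to 1. The scores were then quantile normalized between arrays, except where another setting is named. Percentiles were taken from the deposited scores. It is not known whether intensities or their logarithms were standardised, so differences are in z units and no fold change is given. Equal steps in z units may stand for unequal changes in transcript at different signal levels.

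Proteins bound for the cell surface, such as the T-cell receptor and its coreceptors, enter the ER through the SEC61 channel and fold there with the help of chaperones. Calnexin and calreticulin hold glycoproteins by their sugars, BiP (Hspa5) and its cofactors hold exposed hydrophobic stretches, and disulfide isomerases form and reshuffle disulfide bonds. When unfolded proteins accumulate, the sensors IRE1 (Ern1), PERK (Eif2ak3) and ATF6 raise the output of chaperones and of the degradation machinery, through the factors XBP1, ATF4 and ATF6 itself. Calreticulin also stores calcium in the ER lumen.

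Promoter sequences are shown because many of these genes are textbook targets of ATF6 through the ER stress element (ERSE), in which CCAAT binds NF-Y and CCACG binds ATF6. The sequences are RefSeq's promoter windows of assembly GRCm38.p6, each 250 bases before and 50 after an annotated start site, and 31 of the 37 genes were matched by symbol. Hyou1, Manf, Atf6, Derl1, Sec61a1 and Ssr2 had no entry. The element, CCAAT followed by 9 bases of any kind and CCACG, searched on both strands, was present in 8 of 31 genes (25.8%). Among all 27025 genes with a window it was present in 37 (0.137%). Since the list holds textbook targets of this element, the higher share in the list is not a result of these data. The 9 elements are given here read from CCAAT to CCACG, with those 2 parts in capitals and the 9 spacer bases in lower case. Hsp90b1 has a pair of them.
Calr (chr8:84847075-84847093): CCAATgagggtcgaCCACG
Canx (chr11:50325800-50325818): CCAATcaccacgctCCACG
Pdia6 (chr12:17266491-17266509): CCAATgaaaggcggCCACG
Hspa5 (chr2:34772025-34772043): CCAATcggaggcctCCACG
Hsp90b1 (chr10:86705533-86705551): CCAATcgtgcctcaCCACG
Hsp90b1 (chr10:86705638-86705656): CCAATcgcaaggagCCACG
Dnajc3 (chr14:118937827-118937845): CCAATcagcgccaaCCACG
Creld2 (chr15:88819520-88819538): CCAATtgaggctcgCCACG
Syvn1 (chr19:6046532-6046550): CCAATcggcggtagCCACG

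The elements of Calr and Creld2 and the element of Hsp90b1 nearer to the start site lie on the strand opposite to the gene. The first base of an element lay between position -212 from the start site, in Hsp90b1, and position -44, in Syvn1. When the CCACG part was allowed to differ at 1 position, 15 of 31 genes (48.4%) and 308 of 27025 genes (1.14%) held an element. The shorter element, ATTGG and CCACG with 1 base of any kind between them (ATTGG is the reverse complement of CCAAT), was present in Herpud1 and Dnajb11 and in 12 of 27025 genes (0.0444%). TGACGTGG, the element known for XBP1, was present in Txndc5 and in 193 of all genes (0.714%). Its bases CGTGG are the reverse complement of CCACG, so it can overlap the elements above. TGATGNAA, a composite element of ATF4 and C/EBP factors, was present in Herpud1 and Txndc5 and in 1219 of all genes (4.51%). A match describes these letters only and is not evidence of binding. The windows of Calr and Hspa5 are printed whole, since the differences of these 2 chaperone genes had opposite signs. Capitals mark the element as it lies in the window.
Calr promoter window (chr8:84846882-84847181, minus strand): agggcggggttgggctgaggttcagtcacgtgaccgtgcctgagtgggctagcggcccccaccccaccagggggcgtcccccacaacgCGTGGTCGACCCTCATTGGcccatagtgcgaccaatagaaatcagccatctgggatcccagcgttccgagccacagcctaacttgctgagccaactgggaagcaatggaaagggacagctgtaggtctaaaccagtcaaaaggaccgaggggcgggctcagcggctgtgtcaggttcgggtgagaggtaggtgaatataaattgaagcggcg
Hspa5 promoter window (chr2:34771840-34772139, plus strand): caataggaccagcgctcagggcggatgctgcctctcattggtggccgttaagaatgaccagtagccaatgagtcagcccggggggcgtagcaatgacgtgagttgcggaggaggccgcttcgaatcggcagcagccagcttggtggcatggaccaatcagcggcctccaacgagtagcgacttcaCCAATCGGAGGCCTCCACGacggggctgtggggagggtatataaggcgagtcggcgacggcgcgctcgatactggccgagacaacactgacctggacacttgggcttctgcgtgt

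**Figure D1:**
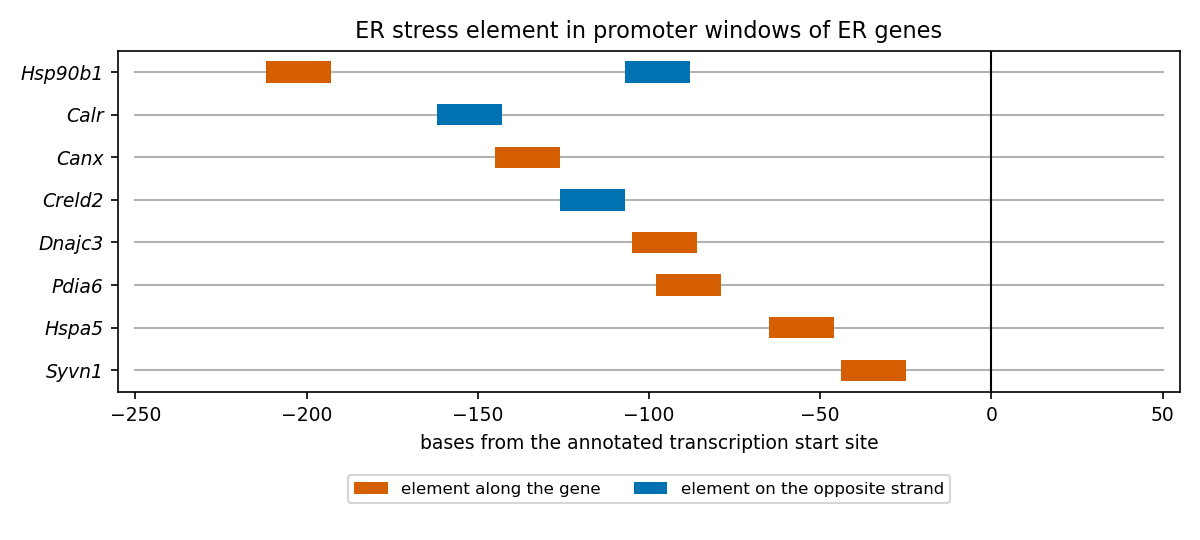
Positions of the ER stress element in the promoter windows of the 8 genes that hold it, in bases from the annotated start site (horizontal axis), with each gene on its own row. Orange boxes are elements along the gene and blue boxes elements on the opposite strand. All 9 elements lie before the start site, and that of Syvn1 is the nearest to it.

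The 6 arrays were alike, with Pearson correlations across tested probes of 0.992 to 0.9963. The deleted gene was lower in knockout mice on 2 of 3 probes (limma, differences of -0.67 and -0.38, adjusted p = 0.00265 and 0.046), and the third probe differed by 0.037 (adjusted p = 0.944). Which probes lie in the deleted part was not established, so the third probe checks nothing. These 2 Klf4 probes were the only calls by limma among 15418 probes at an adjusted p under 0.05 (0.0130% called lower and 0% called higher). Control mouse 3 stood apart, with Xist probes at 2.12 and 1.37 against at most -0.40 in the other mice, and Eif2s3y at -0.83 against 1.53 to 1.89. Of 9 thymocyte markers on the array, Cd3e, Cd8b1 and Thy1 lay above the 99th percentile of the arrays and Rag1 and Dntt above the 98th by their group means. Cd4 was at mean percentiles of 86.9 in knockout and 86.7 in control mice, Ptcra at 66.5 in both and Rag2 at 62.5 and 64.3, and the Cd8a probe was dim. Of the 8 B-cell and plasma-cell markers on the array 4 were dim, namely Jchain, Sdc1, Prdm1 and Pax5. The other 4, Cd79a, Cd79b, Ms4a1 and Mzb1, were tested. Cd79b sat at mean percentiles of 80.9 in knockout and 81.4 in control mice, and Mzb1 at 73.0 and 74.3. The median score of those 8 was -0.591 to -0.511 in knockout mice and -0.594 to -0.509 in control mice, so these markers, which include those of professional secretory cells, overlapped between genotypes. The 6 macrophage markers had medians of -0.333 to 0.0438 in knockout mice and -0.115 to -0.0441 in control mice. Lyz2 sat at mean percentiles of 91.3 in knockout and 92.6 in control mice. It varied widely between mice, from 1.34 to 2.21 in knockout and from 1.52 to 2.25 in control mice. The 5 macrophage markers that were tested all had differences below 0 (median -0.078) with overlapping groups. Of 6 dendritic-cell markers 4 were tested, with 1 difference above 0 and 3 below. Cst3 sat at mean percentiles of 95.7 in knockout and 96.4 in control mice, Cd74 at 93.6 and 93.4, and H2-Aa at 86.7 and 87.5. Cst3 was lower in knockout mice at an unadjusted limma p of 0.0256 (difference -0.13, adjusted p = 0.496), with overlapping groups. In bulk RNA of this kind, fewer cells of a type and less RNA per cell cannot be told apart.

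No ER gene passed the test between the genotypes, and 2 of them, Calr and Hyou1, were higher at an unadjusted p under 0.05. By limma with Benjamini-Hochberg adjustment over all 15418 probes, 0 of the 27 tested genes were higher and 0 lower at an adjusted p under 0.05, where 0% of all 10399 tested genes were called, with 1 probe per gene. Klf4 is not among those calls because the probe with its highest mean, which stands for it there, is the third one above. With robust variance in limma, 1 was higher (Calr) and 0 were lower. At an unadjusted p under 0.05, 2 were higher (7.41%, against 3.87% of all tested genes) and 0 were lower (against 4.98% of all tested genes). Differences were above 0 in 13 of 27 genes (48.1%), the same share as in all tested genes (48.1%). The median difference was -0.011 for the 27 genes and -0.0025 for all tested genes. The groups did not overlap in 4 genes (14.8%, against 14.2% of all tested genes), namely Calr and Hyou1, with knockout mice above (2 of 27, against 6.39% of all tested genes), and Hspa5 and Derl2, with knockout mice below (2 of 27, against 7.78%). The 95% interval of the difference had a median half-width of 0.117 z units, against 0.113 over all tested genes. It lay within 0.25 of 0 in 24 of 27 genes (88.9%, against 91.4% of all tested genes). The exceptions were Calr, Hyou1 and Dnajb9.

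**Figure D2:**
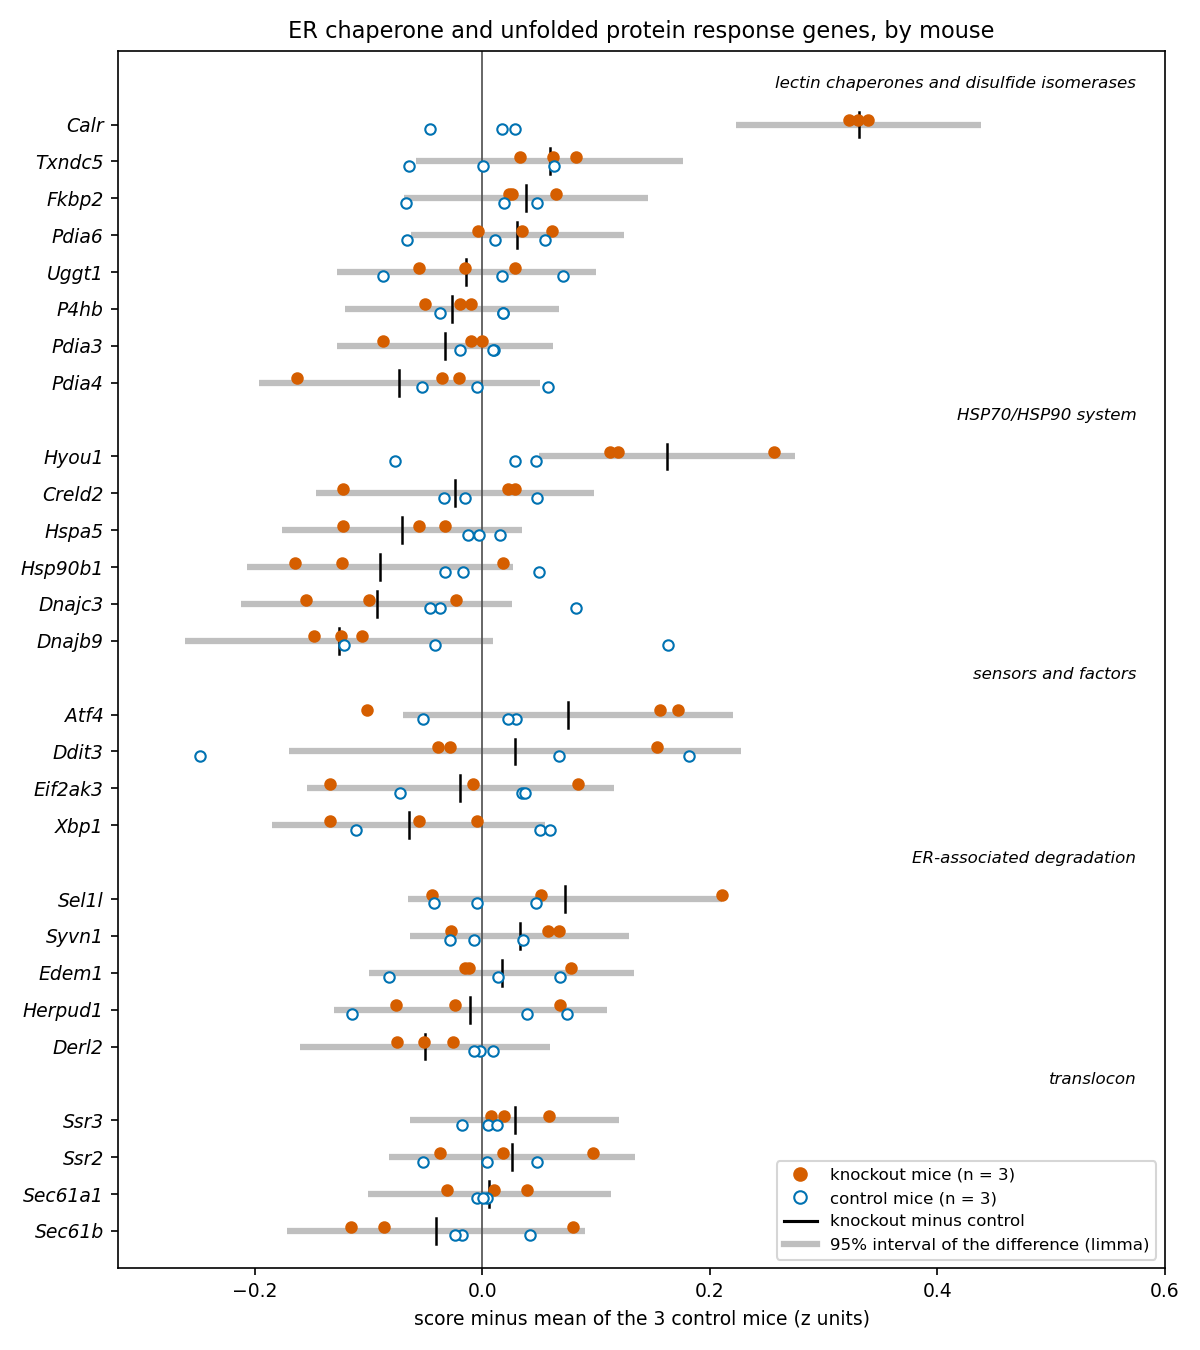
Scores of the 27 tested genes in each mouse, as the difference from the mean of the 3 control mice in z units (horizontal axis), with genes in rows by role. Orange points are knockout mice, open blue points control mice, black ticks the difference between the group means and grey bars its 95% interval from limma. Only Calr and Hyou1 have an interval that leaves out 0, and their knockout points lie right of all control points.

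Among the lectin chaperones and disulfide isomerases, Calr had the largest difference. Calr, which encodes calreticulin, read 1.28, 1.26 and 1.27 in knockout mice 1 to 3, against 0.955, 0.965 and 0.890 in control mice 1 to 3. All knockout mice were above all control mice, and the knockout values lay within a narrower range than the control values. The means were 1.27 ± 0.0085 in knockout mice and 0.937 ± 0.0405 in control mice (SD, n = 3 each). The difference was 0.33 (SE 0.05, 95% interval 0.223 to 0.439), and in mean percentile of the array 86.4 against 81.9. Its unadjusted limma p of 1.54e-05 was the smallest after those of the 2 lower Klf4 probes, and its adjusted p of 0.0791 missed the threshold. With robust variance it passed (adjusted p = 0.0441). The difference was 0.31 without control mouse 3. Calr has a single probe here, so no other probe could be set beside it. Of 8 tested markers of double-positive and CD4 single-positive thymocytes, 6 had differences below 0, against 5393 of all 10399 tested genes. In Dntt and Rag1 all knockout mice were below all control mice (2 of 8, against 7.78% of all tested genes). Dntt read 2.79 to 2.89 in knockout mice and 2.95 to 2.98 in control mice. The median difference over the 8 markers was -0.038, and Cd3e (0.013), Cd4 (0.020) and Cd8b1 (-0.0084) overlapped between the groups. The part of these markers in the Calr difference was not tested.

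Partners of calreticulin had differences near 0. Uggt1 encodes the glucosyltransferase that returns unfolded glycoproteins to calnexin and calreticulin, and it read 1.94, 1.89 and 1.98 in knockout mice, against 1.86, 1.97 and 2.02 in control mice. The groups overlapped fully (difference -0.014, 95% interval -0.128 to 0.0999). Pdia3, the disulfide isomerase that works bound to calreticulin, read 2.57, 2.50 and 2.58 in knockout mice, against 2.59, 2.56 and 2.59 in control mice. Its difference was -0.033 (95% interval -0.128 to 0.0624), so a shift in z units as large as that of Calr lay outside the interval. Pdia3 scored higher than Calr, and at different signal levels equal steps in z units may stand for unequal changes in transcript. Canx, the membrane-bound relative of calreticulin, was dim in all mice and overlapped between groups, at -0.83 to -0.78 in knockout mice and -0.81 to -0.73 in control mice. Its probe sat at mean percentiles of 7.25 and 12.1 of the arrays, so calnexin transcripts could not be judged from it.

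The other foldases overlapped between the groups. Pdia4, a disulfide isomerase induced by ER stress, read 0.935, 1.06 and 1.08 in knockout mice, against 1.15, 1.09 and 1.04 in control mice (difference -0.073, SE 0.0571, adjusted p = 0.741). Knockout mouse 1 was the lowest, and without it the difference was -0.028, while without control mouse 1 it was -0.044. Txndc5, another member of the disulfide isomerase family, read 0.687, 0.716 and 0.736 in knockout mice, against 0.718, 0.655 and 0.590 in control mice (difference 0.059, SE 0.0544, adjusted p = 0.799). Control mouse 3 was the lowest, and without it the difference was 0.027, while without control mouse 1 it was 0.090. P4hb, which encodes protein disulfide isomerase itself, differed by -0.027, Pdia6 by 0.031 and the prolyl isomerase gene Fkbp2 by 0.038, and another Fkbp2 probe gave 0.00038. The 8 tested genes of this group had 4 differences above 0 and 4 below, with a median of 0.0084.

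In the HSP70/HSP90 system, Hyou1 was the only 1 of 6 tested genes with a difference above 0 on the probe that stands for it. The 95% intervals of the other tested genes all included 0. Hyou1 encodes the large HSP70-like protein that exchanges nucleotide on BiP. It read -0.225, -0.369 and -0.362 in knockout mice, against -0.434, -0.453 and -0.558 in control mice. All knockout mice were above all control mice, with the highest value in knockout mouse 1 and the lowest in control mouse 3. The difference was 0.16 (SE 0.0522, 95% interval 0.0501 to 0.275), and its adjusted limma p was 0.417. It was 0.12 without knockout mouse 1 and 0.12 without control mouse 3. The mean percentile of the probe was 58.6 in knockout and 50.1 in control mice.

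BiP and the HSP90 of the ER had differences below 0, and neither passed the test. Hspa5 encodes BiP, the main HSP70 of the ER and the standard marker of the unfolded protein response. It read -0.201, -0.112 and -0.134 in knockout mice, against -0.0812, -0.0629 and -0.0913 in control mice. Its single probe sat at mean percentiles of 63.5 in knockout and 65.1 in control mice. The groups did not overlap, with all knockout mice below all control mice, but the difference of -0.071 (SE 0.0487) had a 95% interval of -0.176 to 0.0345 (adjusted p = 0.708). Without knockout mouse 1 the difference was -0.045. Hsp90b1, the HSP90 of the ER, read 2.36, 2.17 and 2.21 in knockout mice, against 2.39, 2.31 and 2.32 in control mice. Knockout mouse 1 lay within the control range, and the difference was -0.09 (SE 0.0541, adjusted p = 0.669). Without knockout mouse 1 it was -0.14, and without knockout mouse 2 it was -0.052.

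The J-domain cochaperones of BiP, which stimulate its ATPase, gave differences of the same sign on the probe that stands for each gene. Dnajb9 read 2.39, 2.35 and 2.37 in knockout mice, against 2.45, 2.37 and 2.66 in control mice (difference -0.13, SE 0.0629, adjusted p = 0.594). Control mouse 3 was far above the other control mice, and without it the difference was -0.046. The other Dnajb9 probe was dim and differed by 0.014, and with the gene mean over probes the Dnajb9 difference was -0.056. Dnajc3 read 1.55, 1.61 and 1.68 in knockout mice, against 1.67, 1.66 and 1.79 in control mice (difference -0.093, SE 0.0552, adjusted p = 0.663). Control mouse 3 was again the highest, and without it the difference was -0.052, while without knockout mouse 1 it was -0.061. Creld2, a secreted ER stress target, differed by -0.024 on the probe that stands for it and by 0.026 on the other. Manf, another secreted target, was dim and differed by 5.12e-05. Over the 6 tested genes 5 differences were below 0, with a median of -0.08, against -0.0025 for all tested genes. Relative to the control mean of each gene, the median of these 6 genes was -0.0435, -0.111 and -0.0396 in knockout mice 1 to 3, and -0.00874, -0.0331 and 0.0176 in control mice 1 to 3. Over the 27 tested ER genes it was -0.00979, -0.00784 and -0.015 in knockout mice, and 0.0103, -0.00227 and 0.00076 in control mice. In the medians over these 6 genes and over all 27, all knockout mice were below all control mice. In each role group other than the HSP70/HSP90 system the genotypes overlapped in this median. How often sets of this size do not overlap was not computed, and single genes did not overlap in 14.2% of all tested genes. The differences in these medians were not tested.

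**Figure D3:**
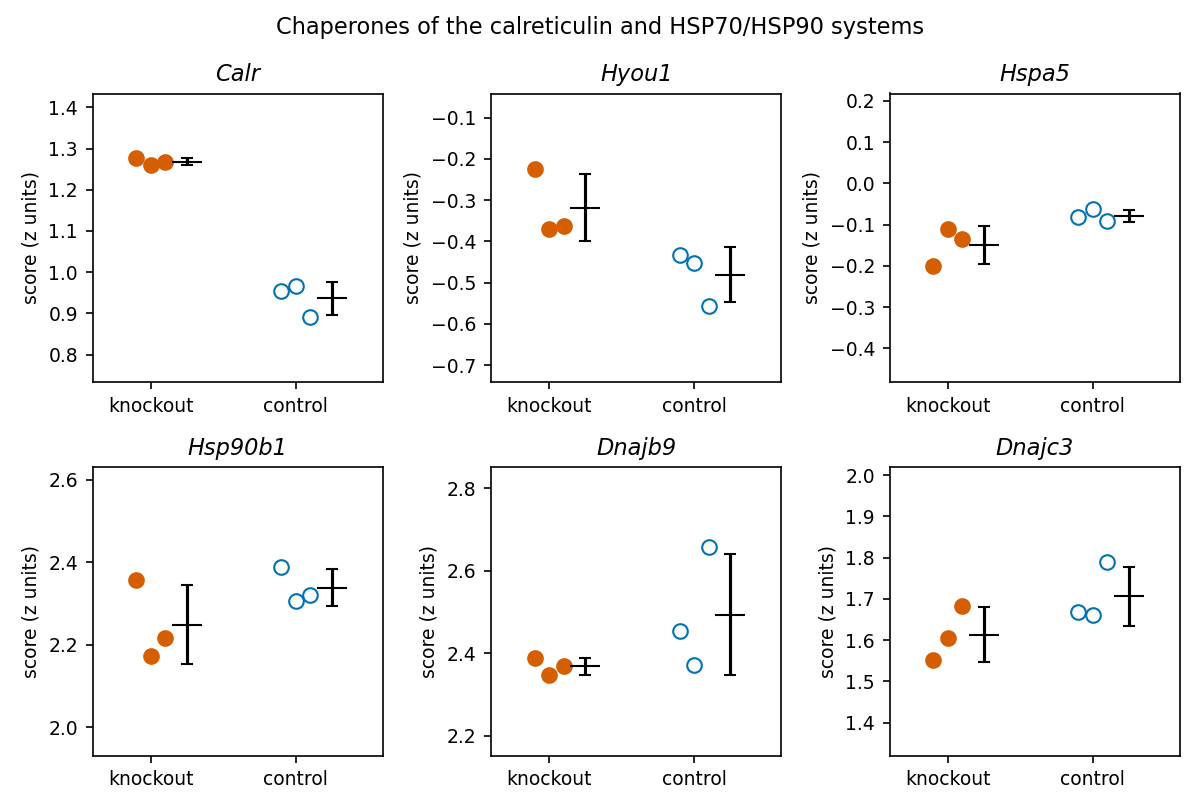
Scores in z units (vertical axes, each spanning the same 0.7 units) of Calr and 5 genes of the HSP70/HSP90 system in the 3 knockout (orange) and 3 control mice (open blue), with the mean and SD beside the points. All knockout points lie above all control points in Calr and Hyou1 and below them in Hspa5, and the groups of Hsp90b1, Dnajb9 and Dnajc3 overlap.

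The groups overlapped in all 4 tested sensors and factors. Xbp1, whose RNA is spliced by IRE1 to encode an active factor, read 2.31, 2.44 and 2.39 in knockout mice, against 2.50, 2.33 and 2.50 in control mice. The groups overlapped (difference -0.065, SE 0.0557, adjusted p = 0.775), and an array probe of this kind does not by itself separate spliced from unspliced Xbp1. The difference was -0.030 without knockout mouse 1, -0.039 without control mouse 1, -0.12 without control mouse 2 and -0.036 without control mouse 3. Atf4, the factor translated when PERK phosphorylates eIF2alpha, read 1.89, 2.15 and 2.16 in knockout mice, against 2.02, 2.02 and 1.94 in control mice. Knockout mouse 1 was the lowest of all mice and the other knockout mice the highest (difference 0.076, SE 0.0672, adjusted p = 0.787), and the difference was 0.16 without knockout mouse 1, 0.035 without knockout mouse 2, 0.028 without knockout mouse 3 and 0.049 without control mouse 3.

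Ddit3, which encodes the pro-apoptotic factor CHOP downstream of ATF4, read 1.14, 1.32 and 1.13 in knockout mice, against 1.24, 1.35 and 0.921 in control mice. Its difference was 0.029 (SE 0.0921, adjusted p = 0.958), and leaving out any 1 mouse moved it by over 1.5 times, to between -0.097 (without control mouse 3) and 0.12 (without control mouse 2). The other Ddit3 probe also had its lowest value in control mouse 3, at 0.588, with 0.698 to 0.996 in knockout mice and 0.923 and 0.981 in the other control mice. Eif2ak3, the PERK gene, read 1.23, 1.13 and 1.01 in knockout mice, against 1.07, 1.18 and 1.18 in control mice (difference -0.019). Ern1, the IRE1 gene, was dim, at -0.80 to -0.71 in knockout mice and -0.79 to -0.74 in control mice. The 4 tested genes of this group had 2 differences above 0 and 2 below.

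Genes of ER-associated degradation, which pulls misfolded proteins back to the cytosol for the proteasome, had differences of at most 0.073 in size on the probe that stands for each gene. Sel1l, the adaptor of the HRD1 ubiquitin ligase, read 1.54, 1.28 and 1.38 in knockout mice, against 1.32, 1.29 and 1.38 in control mice (difference 0.073, SE 0.064, adjusted p = 0.783). Knockout mouse 1 was the highest, and without it the difference was 0.0039, while without knockout mouse 2 it was 0.13. The other Sel1l probes gave 0.013 and -0.093. Syvn1, which encodes HRD1 itself, read 2.76, 2.67 and 2.75 in knockout mice, against 2.69, 2.67 and 2.73 in control mice (difference 0.033, SE 0.0447, adjusted p = 0.869). The groups overlapped, and without knockout mouse 1, 2 or 3 the difference was 0.015, 0.061 and 0.020 in turn. It was 0.018 without control mouse 2 and 0.052 without control mouse 3.

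Derl2, a derlin that helps move substrates across the membrane, read 0.404, 0.453 and 0.427 in knockout mice, against 0.488, 0.476 and 0.471 in control mice. All knockout mice were below all control mice, by a difference of -0.051 (SE 0.051, adjusted p = 0.814). A further tested Derl2 probe differed by -0.11 with overlapping groups, and the remaining probe was dim. Herpud1, a stress-induced partner of HRD1, differed by -0.011 and -0.043 on its 2 probes, and as with Ddit3 its lowest value on both probes was in control mouse 3, at 2.80 and 2.53. Edem1, a lectin that marks glycoproteins for disposal, differed by 0.017. The 3 Derl1 probes were all dim. The 5 tested genes had a median difference of 0.017.

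The 4 tested translocon genes had differences of at most 0.041 in size on the probe that stands for each gene. Sec61a1, the channel subunit, read 1.15, 1.12 and 1.07 in knockout mice, against 1.11, 1.10 and 1.11 in control mice (difference 0.0061, 95% interval -0.101 to 0.113). Sec61b, a small subunit, read 0.694, 0.890 and 0.724 in knockout mice, against 0.793, 0.852 and 0.786 in control mice (difference -0.041, adjusted p = 0.887), and its other probe gave -0.044. Without knockout mouse 1, 2 or 3 the Sec61b difference was -0.0032, -0.101 and -0.017 in turn, and without control mouse 2 it was -0.019. Ssr2 and Ssr3 are subunits of the translocon-associated TRAP complex. Ssr2 read 2.36, 2.22 and 2.28 in knockout mice, against 2.21, 2.31 and 2.27 in control mice (difference 0.026, adjusted p = 0.922). The Ssr2 difference was -0.0094 without knockout mouse 1, 0.057 without knockout mouse 2, 0.00041 without control mouse 1 and 0.050 without control mouse 2. Ssr3 read 2.54, 2.49 and 2.50 in knockout mice, against 2.49, 2.46 and 2.50 in control mice (difference 0.029, adjusted p = 0.887), and its difference was 0.013 without knockout mouse 1. The groups of all 4 genes overlapped, and their median difference was 0.016. Ssr1 was dim.

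Genes that hold the ER stress element had differences of both signs. Of the 8 genes that hold it, 7 were tested, with 3 differences above 0 and 4 below and a median of -0.024. They ran from -0.093 in Dnajc3, whose window holds 1 element as does that of Calr, to 0.33 in Calr. Hsp90b1, with its pair of elements, was at -0.09. Of the 29 other genes with the element in the whole promoter table, 5 were tested on this array. Their differences ran from -0.0295 to 0.0676, with 3 above 0. The groups did not overlap in 2 of the 7 tested genes of the list that hold the element, Calr and Hspa5, against 14.2% of all tested genes. They did not overlap in 0 of the 5 tested genes outside the list, which include the ER folding enzyme gene Ero1b.

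**Figure D4:**
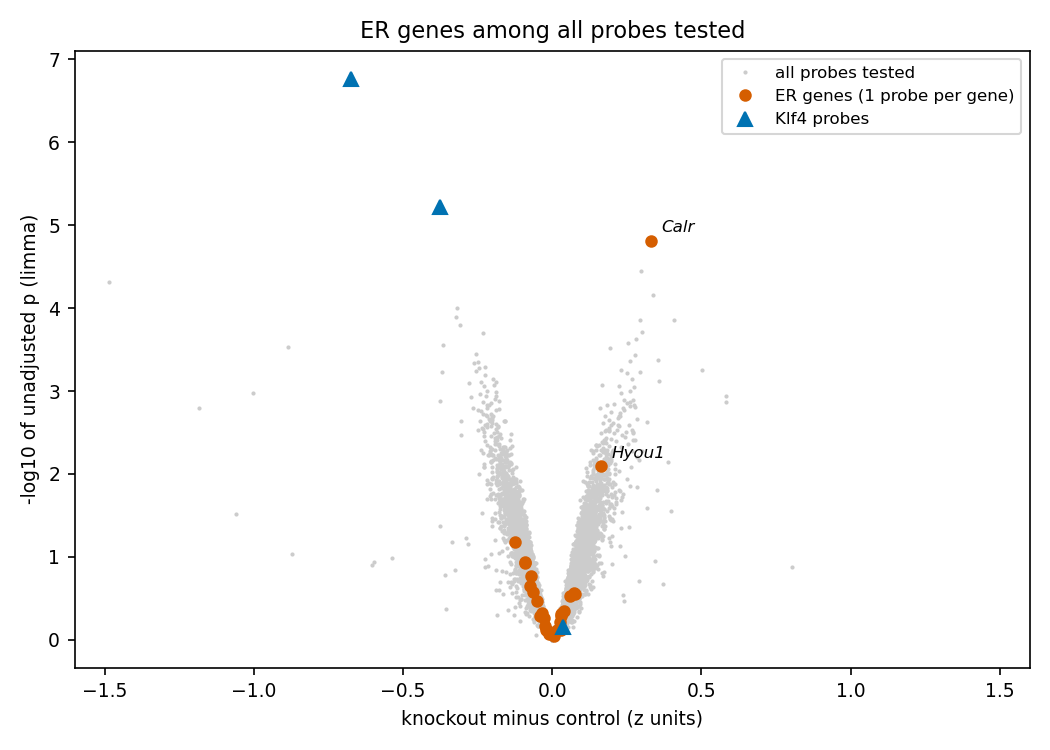
Difference between genotypes in z units (horizontal axis) against -log10 of the unadjusted limma p (vertical axis) for the 15418 tested probes in grey, with the 27 ER genes in orange and the 3 Klf4 probes as blue triangles. Calr, at 0.33, lies next below the 2 lower Klf4 probes by p, Hyou1 is the next ER gene, and the other ER genes lie near the foot of the plot.

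Further genes of the same pathways, from lists written from textbook knowledge, also gave 0 calls in either direction by limma. Of 108 such genes 102 were on the array and 90 were tested. Differences were above 0 in 47 and below 0 in 43, with a median of 0.003, and 4 were higher and 7 lower at an unadjusted p under 0.05 (against 3.87% and 4.98% of all tested genes). Among other folding enzymes, with 10 of 19 differences above 0, the 3 with the smallest p had differences below 0. They were the thioredoxin-like gene Txndc12 (-0.18, adjusted p = 0.356), the prolyl isomerase gene Fkbp14 (-0.12) and Erp44 (-0.082), whose protein retains oxidoreductases in the early secretory pathway. Over the 90 genes the groups did not overlap in 12, close to the share of all tested genes (14.2%). All knockout mice were above all control mice in 4 (Slc7a5, Aars, Selenos and Qsox1, against 6.39% of all tested genes), and below them in 8 (Txndc12, Fkbp14, Rnf5, Srp19, Mthfd2, Man1b1, Bcap31 and Creb3, against 7.78%).

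Among other degradation genes, with 10 of 15 differences above 0, the ubiquitin ligase gene Rnf5 differed by -0.15, Selenos by 0.10 and Herpud2 by 0.12. Among other translocation and signal peptide genes, with 7 of 17 above 0, Srp19 of the signal recognition particle differed by -0.13, the signal peptidase gene Sec11a by -0.085 and Tram1 by -0.077. The oligosaccharyltransferase, which attaches the sugars that calreticulin reads, had 3 of 8 differences above 0. Its catalytic subunit gene Stt3b differed by -0.051 and Rpn1 by -0.046, while Magt1 was dim and differed by 0.13.

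Among other stress sensors and their processing, 5 of 13 differences were above 0. The proteases that release ATF6 in the Golgi had differences of opposite sign, with Mbtps1 at 0.19 (adjusted p = 0.466) and Mbtps2 at -0.091 (adjusted p = 0.578). Ppp1r15a, which encodes the stress-induced cofactor that reverses eIF2alpha phosphorylation, differed by -0.13. Among targets of ATF4 and CHOP, 12 of 18 differences were above 0 with a median of 0.019. The amino acid transporter gene Slc7a5 differed by 0.14 and the tRNA synthetase gene Aars by 0.13, while the cystine transporter gene Slc7a11 differed by -0.18. None of these had an adjusted p under 0.05.

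The highest and lowest values of the 27 tested ER genes were counted by mouse. Knockout mouse 1 had the highest value in 10 genes (37%, against 20.1% of all tested genes) and the lowest in 7 (25.9%, against 21.9%). Control mouse 3 had the highest value in 5 (18.5%, against 18.3%) and the lowest in 6 (22.2%, against 19%), close to its shares over all tested genes. Knockout mouse 3 had the highest value in 2 (7.41%, against 14%) and the lowest in 2 (7.41%, against 13.2%). Markers of handling and dissociation also varied between mice. The median difference of the 9 tested was -0.11, with 7 below 0. At an unadjusted limma p under 0.05, 1 of 9 was higher and 3 were lower (against 3.87% and 4.98% of all tested genes). The higher one was Fosb (0.40), lowest in control mouse 3 and next lowest in knockout mouse 3. The lower ones were Ier2 (-0.17), Dusp1 (-0.14) and Atf3 (-0.11). Only in Atf3 did the groups not overlap, with knockout mice below (1 of 9, against 7.78% of all tested genes). The part of this variation in the ER values was not tested.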

How the data were processed

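Each of the 6 mice gave 1 bead array. The deposited values are scores, which the authors had standardised per array to mean 0 and SD 1, as the values show. GenomeStudio 2010.1 is named, without a role, per the submitters' processing notes, and background correction is not given in the sources used here. The column medians of the deposited scores were -0.493, -0.489 and -0.49 in knockout mice and -0.488, -0.491 and -0.487 in control mice. No detection p-values were used. Centring and scale are known, but not whether logarithms were taken. The table held 0 columns of other samples.

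Probe symbols came from GEO's platform annotation, updated by gene identifier through RefSeq (23962 of 23978 identifiers matched; 0 probes had several symbols and 1719 had none). Scores were quantile normalized between arrays, with the deposited scores as an alternative, and probes whose mean lay under the 40th percentile (10279, below -0.602) were left out. No tested ER gene had a group mean under that limit. limma 3.58.1 in R 4.3.3 (lmFit, eBayes with trend, two-sided) compared knockout with control mice, with Benjamini-Hochberg adjustment over 15418 probes. The fit was tested on simulated data with shifts far larger than the ER differences here. It does not tell how often differences of the size seen here would be called. The genes and lists were chosen with earlier results of these data known. Per-mouse values were to be given for Calr, Hspa5, Hsp90b1, Xbp1, Atf4 and Ddit3 and for the 3 genes of each role with the smallest p, and others where needed. From each further list the 3 genes with the smallest p were named. Alternatives were other normalizations, filters, variance models, array weights, a replicate block, gene means over probes, and leaving out each mouse. The number of arrays limits the precision. The replicates are separate mice, per the series' design.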

Additional observations from a re-analysis of the deposited data

How the results depend on the processing

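Of 473 recomputed values, 434 kept their direction and side of the threshold, or moved by less than the spread between mice. No ER gene was called lower under any of the 15 alternatives, and 1 (Calr) was called higher, with robust variance (adjusted p = 0.0441). Over all alternatives the Calr difference ran from 0.31 to 0.3425 with adjusted p from 0.0441 to 0.38, and Hyou1 ran from 0.1162 to 0.1903 with adjusted p from 0.282 to 0.755. Hyou1 could not be fitted under the stricter filter, which removes it. The probes called higher over the whole array were 1 with robust variance and 2 with the replicate block, and 0 to 1 without 1 mouse. The probes called lower were 0 under the stricter filter, which removes the 2 lower Klf4 probes, 1 without a trend, and 1 to 4 without 1 mouse.

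The median difference over the ER genes was -0.003127 with deposited scores, -0.001112 with median centring, -0.001136 with array weights and -0.002159 with gene means over probes. Without 1 mouse it ran from -0.009444 to 0.02035. The median of lectin chaperones and isomerases was -0.01409 both with no filter and with the stricter one. Without 1 mouse, medians ran from -0.003876 to 0.02589 for lectin chaperones and isomerases, from -0.08474 to -0.04905 for the HSP70/HSP90 system, from -0.02921 to 0.04238 for sensors and factors, from -0.01462 to 0.05212 for degradation, and from -0.006306 to 0.02728 for the translocon. The median of the further pathway genes was -0.007415 with array weights and -0.0159 to -0.001776 without 1 mouse. Sel1l turned sign to -0.002159 with gene means over probes. Ddit3 ran from -0.09685 to 0.1188 and Ssr2 from -0.009444 to 0.05676 without 1 mouse, and both turned sign. The cause of these shifts was not tested. Klf4 probe ILMN_1221264 lost its call without a trend (adjusted p = 0.141) and without each mouse but control 3. The Klf4 values and the further pathway genes were added to these alternatives after seeing the data.

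Arrays of the same number in both genotypes had correlations of their deviations of -0.0338, 0.167 and 0.0346, and 3 of 6 arrays correlated best with their own number, so the numbers were not taken to pair mice. With the replicate block 0 ER genes were called, and the Calr adjusted p was 0.0646. With 3 arrays per genotype and dim probes for Canx, Manf, Ern1, Derl1 and Ssr1, changes in those 5 genes could not be judged.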
